A study of Homo sapiens with 6 samples.

Results

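Expression of 57 genes of the mitotic spindle, the kinetochore and the mitotic kinesins was measured in U87-2M1 glioma cells that received a miR-10b decoy or a control decoy. The genes were taken from a named list, through probe sets that carry 1 gene symbol in the platform annotation, and the probe set with the highest mean over the 6 arrays stood for each gene. All 57 were found among 19775 genes on the array, and all 57 passed the filter on low signals that left 13842 genes for testing. U87-2M1 is an invasive subline of the human glioma line U87 that was recovered from a lung metastasis assay in animals and then grown again in vitro. Both groups were passage 4 cells maintained in hypoxia, and both were transduced with baculovirus, which infects insects and can deliver genes to mammalian cells. The controls received the control decoy vector (3 arrays) and the treated cells the miR-10b decoy vector (3 arrays), a decoy being an RNA designed to occupy a microRNA in place of its natural targets. The labels name no separate cultures within a group, so p-values reflect the spread of these arrays only, which may be technical. The level of miR-10b itself was not analysed here.

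When a cell divides, the spindle, an array of microtubules, attaches to the kinetochores, protein assemblies built on the centromere of each chromosome, and pulls the sister chromatids apart. Kinesins are motor proteins that slide, sort or shorten the microtubules, and a checkpoint holds the anaphase-promoting complex (APC/C) back until every kinetochore is attached. Most of these genes are transcribed in waves that peak late in the cell cycle, which is why their messenger RNA is widely used as a sign of dividing cells, including in glioma. Repression and activation of such genes outside and inside that window are known to run through the CHR element, a promoter site read by the DREAM and MuvB complexes, and through CCAAT boxes bound by NF-Y.

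Promoter sequence is shown because most of the 57 genes moved together on the arrays. RefSeq promoters, which run from 250 bases before to 50 bases after the annotated start, were at hand for 48 of the 57 genes, 7 of them with 2 promoters (build GRCh38.p14). The CHR element was searched as TTTGAA and the CCAAT box as CCAAT, each on both strands, so that they also appear as TTCAAA and ATTGG. A CHR match stood in 36 of the 48 genes (75%), against 18.2% of all 27305 genes with a promoter, and a CCAAT match in 36 (75%), against 39.7%. Both were present in 28 genes (58.3%), against 7.26% of all genes. By single promoters in place of genes, 69.1% of the members' 55 promoters and 15.2% of all 35116 held a CHR match. A match of letters is a description and not a measured binding site.

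The 80 bases before the start are printed for 9 genes, chosen after the array values were seen, with both motifs in capitals. The first 6 were lower on the decoy arrays and hold a CHR match, as single or doubled copies. PLK1 and ESPL1 hold the same pair of motifs and were not called lower, whereas KIF2C was lower and holds neither. The PLK1 probe set was dim (SE of the log2 difference 0.24), so a fall there could have been missed.
KIF11: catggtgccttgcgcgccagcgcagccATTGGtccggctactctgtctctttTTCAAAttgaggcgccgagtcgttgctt
PRC1: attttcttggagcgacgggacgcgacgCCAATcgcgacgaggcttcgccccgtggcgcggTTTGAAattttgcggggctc
CDCA8: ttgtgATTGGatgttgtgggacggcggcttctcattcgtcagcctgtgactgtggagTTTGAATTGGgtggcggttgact
MKI67: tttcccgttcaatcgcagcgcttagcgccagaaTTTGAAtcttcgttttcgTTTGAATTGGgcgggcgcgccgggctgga
HMMR: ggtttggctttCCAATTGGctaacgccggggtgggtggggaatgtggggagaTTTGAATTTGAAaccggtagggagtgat
CENPA: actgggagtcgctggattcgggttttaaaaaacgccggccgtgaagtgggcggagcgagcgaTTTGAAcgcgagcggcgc
PLK1: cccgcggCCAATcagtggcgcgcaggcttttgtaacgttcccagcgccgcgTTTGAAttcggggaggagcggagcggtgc
ESPL1: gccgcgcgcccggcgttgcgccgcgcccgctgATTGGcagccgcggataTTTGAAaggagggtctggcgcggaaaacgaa
KIF2C: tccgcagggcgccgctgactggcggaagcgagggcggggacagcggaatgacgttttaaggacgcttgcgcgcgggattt

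These stretches lie at chr10:92593050-92593129 (plus strand) for KIF11, chr15:90994536-90994615 (minus strand) for PRC1, chr1:37692436-37692515 (plus strand) for CDCA8, chr10:128126424-128126503 (minus strand) for MKI67 and chr5:163460552-163460631 (plus strand) for HMMR. Those of CENPA, PLK1, ESPL1 and KIF2C lie at chr2:26785976-26786055 (plus strand), chr16:23678809-23678888 (plus strand), chr12:53268219-53268298 (plus strand) and chr1:44739757-44739836 (plus strand). In CDCA8 and MKI67 a CHR match and a CCAAT match share 1 letter, and in HMMR 2 CHR matches stand next to each other. The CHR matches of the 48 genes gathered near the start: in the first promoter listed for each gene, 32 of 48 (66.7%) had one beginning between 60 bases before and 50 after it, against 5.07% of all genes, in a window chosen after the positions were seen. Among the 41 genes with a promoter that were lower on the arrays, 32 held a CHR match and 9 did not. Of the 7 with a promoter that were not called lower, 4 held one. Among these 4 were PLK1 and INCENP, whose dim probe sets (SE 0.24 and 0.39) could miss a fall. CENPI and SPC24, which held none, were also loosely measured (SE 0.17 and 0.18).

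**Figure D1:**
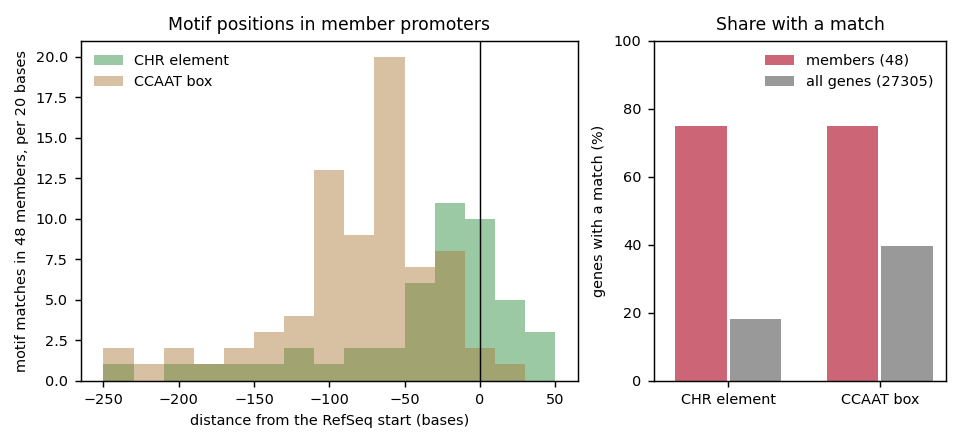
Left, distance in bases of each CHR (green) and CCAAT (brown) match from the RefSeq start, counted in bins of 20 bases over the first listed promoter of 48 of the mitotic genes; right, percentage of genes with a match among the 48 (red) and among all 27305 genes with a promoter (grey). CHR matches cluster at the start and CCAAT matches further upstream, and the CHR share is 75% against 18.2%.

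Signals were compared on the log2(signal + 7) scale after quantile normalization, which gives the arrays a common distribution, and a gene passed at an adjusted p under 0.05 in limma's test with Benjamini-Hochberg adjustment over all 13842 genes. All signals below are normalized signals in linear units. Of the 57 genes, 48 were lower in the decoy group, 1 was higher and 8 did not pass. Over all tested genes, 17.4% were lower and 16.6% higher, 2402 and 2298 genes. The median log2 difference, miR-10b decoy minus control, was -0.64 over the 57 genes and -0.02 over all genes, and it was negative for 55 of the 57. The falls were moderate: 35 genes were at least 1.5-fold lower, against 6.4% of all genes, and 3 at least 2-fold, against 1.05%. All 3 decoy arrays lay below all 3 control arrays for 52 genes, against 24.1% of all genes. RNA from a whole culture was measured, so fewer cells in division and less of these RNAs per dividing cell cannot be told apart.

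The deposited signals did not lie on a common scale, control replicate 3 having a trimmed mean of 192 where the other 5 arrays had 155 to 163. Without normalization 50 of the 57 genes were lower and 0 higher, and after centring each array on its median 48 were lower and 1 higher. The split over all genes did move, from 51.1% lower among the genes past the threshold to 70.1% without normalization and 37.8% after centring. Correlations between arrays of 1 group were 0.985 to 0.987 over the tested genes and between groups 0.967 to 0.973. The 3'/5' signal ratio of actin, a sign of RNA integrity, moved with the groups, at 5.73 ± 0.47 (SD, n = 3) on control arrays and 8.54 ± 1.77 on decoy arrays, while that of GAPDH was 0.945 ± 0.019 and 0.943 ± 0.0075. Its part in the results was not tested. Of 8 glioma and mesenchymal markers, VIM and CD44 were strong and did not pass, at 9896 ± 98.9 and 7543 ± 183 with the decoy (SD, n = 3). FN1 fell from 9429.7 ± 350.7 to 8609.6 ± 357 and NES from 485 ± 32.5 to 371 ± 40.4 (SD, n = 3), both past the threshold. OLIG2, a glial factor left out by the filter, read 4.59 ± 3.51 and 23.0 ± 5.88, while SOX2 was dim and did not pass, and the glial markers GFAP and S100B lay under the filter level of 15.6 in both groups. The sum of the 8 ranged from 26711 to 27875 in controls and from 26294 to 26641 with the decoy, without overlap. Of 13 markers of leukocytes, endothelium, epithelium and lung, 6 were above the filter and PECAM1 alone of these passed, lower at 142 ± 5.88 and 106 ± 0.216, and the endothelial sum of 3 markers ranged from 141 to 164 in controls and from 112 to 118 with the decoy. The sums of the other classes overlapped, at 24.8 to 48.2 against 23.3 to 36.0 for leukocytes, 97.2 to 99.96 against 96.4 to 109 for epithelium and 147 to 186 against 104 to 164 for lung, and the part of any such RNA was not tested.

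Averaged over the 57 genes, the log2 level of the decoy arrays differed from the control mean by -0.59, -0.52 and -0.72 for replicates 1, 2 and 3. Those of the control arrays stayed within 0.03 of their mean. Decoy replicate 3 was the lowest of all 6 arrays for 40 genes and decoy replicate 2 the highest decoy array for 36. The median coefficient of variation of a gene was 6.69% among control arrays and 9.38% among decoy arrays. The actin ratio was 10.6, 7.36 and 7.68 on decoy replicates 1, 2 and 3, and 6.22, 5.27 and 5.69 on the control arrays. Whether it bears on these differences was not tested.

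**Figure D2:**
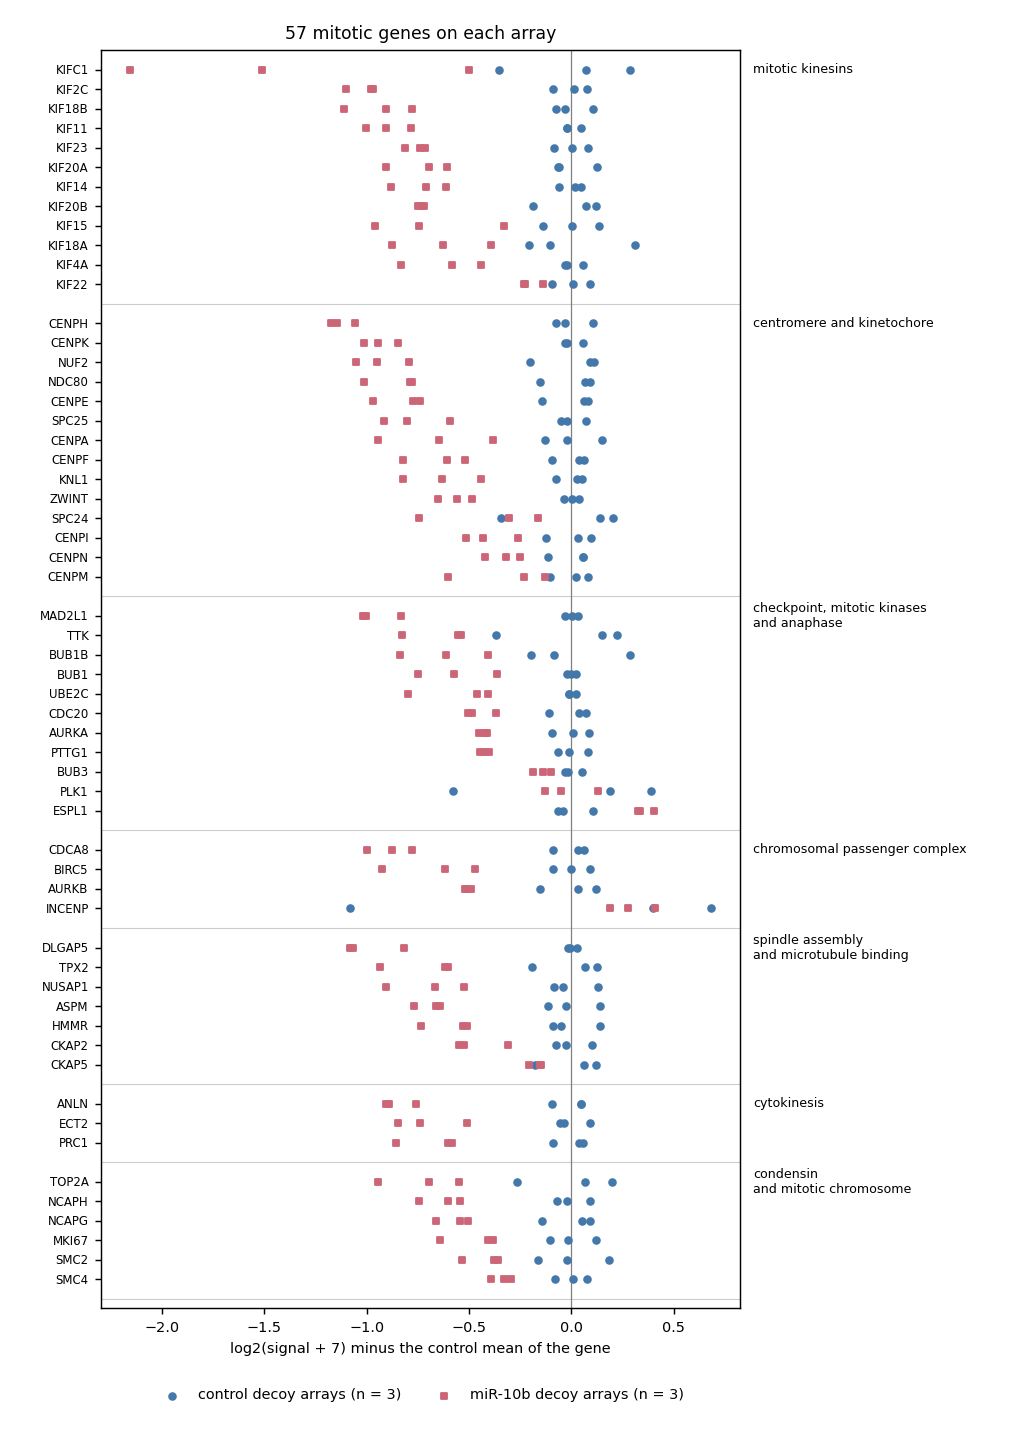
log2(signal + 7) of each of the 57 genes on every array, minus the gene's control mean, grouped by role; blue circles are the 3 control decoy arrays and red squares the 3 miR-10b decoy arrays. The red squares lie left of all blue circles for 52 genes, and right of them for ESPL1.

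Mitotic kinesins were lower almost throughout. Of 12, 11 were lower, 0 higher, and 1 did not pass, with a median log2 difference of -0.74. KIF11, the motor that pushes spindle poles apart, read 368, 368 and 386 on the control arrays and 196, 215 and 183 on the decoy arrays, a log2 difference of -0.90 (SE 0.09, adjusted p = 2.03e-05). The groups lay far apart, each with little spread. KIF2C, which shortens microtubules to correct wrong attachments, read 719, 809 and 773 against 386, 389 and 353, a 2.02-fold fall (log2 difference -1.02, SE 0.08, adjusted p = 2.83e-06). KIF18B and KIF18A, which limit microtubule growth at the tips, differed by -0.93 (SE 0.10) and -0.63 (SE 0.16), and the KIF18A call ended without the intensity trend (adjusted p = 0.0504).

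The kinesins of the central spindle and of cytokinesis also fell, and so did the spindle motor KIF15. KIF23, a subunit of centralspindlin, went from 336 ± 19.6 to 196 ± 7.25 (SD, n = 3) and KIF20A from 354 ± 27.1 to 210 ± 22.6. KIF14 differed by -0.73 (SE 0.09), KIF4A, a chromosome-bound motor that works with PRC1, by -0.62 (SE 0.10), and KIF15, which backs up KIF11, by -0.68 (SE 0.16). KIF20B read 299, 288 and 240 in controls and 162, 164 and 161 with the decoy, nearly equal values on the decoy side. Its other 2 probe sets, with mean signals of 16.3 and 3.58, had log2 differences of 0.02 and 0.01, and with the mean of all its probe sets the call ended (adjusted p = 0.350).

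KIFC1, a motor that gathers spindle poles and moves toward the minus ends, had the largest log2 difference of the 57, -1.39 (SE 0.35, adjusted p = 0.00915). Its signals were low, at 58.5, 95.0 and 81.0 in controls and 22.4, 52.2 and 11.8 with the decoy. Decoy replicate 3 lay under the filter level and replicate 2 came close to the lowest control array, so the size is loosely set. The call ended without the intensity trend (adjusted p = 0.0605) and without moderation (adjusted p = 0.142). KIF22, a motor on chromosome arms, did not pass: it read 320, 341 and 298 against 289, 272 and 271, a log2 difference of -0.20 (SE 0.09, adjusted p = 0.0959). The KIF22 groups did not overlap but lay close, and its dim second probe set had 0.13.

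Of 14 centromere and kinetochore genes, 11 were lower, 0 higher and 3 did not pass, with a median of -0.65. CENPA, the histone variant that marks the centromere, read 196, 222 and 181 against 125, 151 and 100 (log2 difference -0.66, SE 0.14, adjusted p = 0.00400). Its lowest control and highest decoy arrays were still apart. The inner kinetochore subunits CENPH and CENPK had the largest falls of the class. CENPH went from 629, 574 and 556 to 261, 278 and 256, 2.18-fold lower (log2 difference -1.12, SE 0.08, adjusted p = 2.28e-06), on a probe set whose suffix marks possible cross-hybridisation. CENPK went from 865, 859 and 914 to 453, 485 and 433, a log2 difference of -0.93 (SE 0.07, adjusted p = 2.95e-06). CENPN, which reads the CENPA nucleosome, fell from 874 ± 59.4 to 693 ± 41.7 (SD, n = 3; log2 difference -0.33, SE 0.07), with all 3 of its other probe sets on the same side; the call ended with the mean of the 4 (-0.34, adjusted p = 0.0594).

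The same assembly held genes that did not pass. CENPI read 55.8, 66.1 and 62.9 against 43.7, 41 and 50.1 (log2 difference -0.40, SE 0.17, adjusted p = 0.0873). Its groups were apart but dim, and CENPI passed without the intensity trend (adjusted p = 0.0314). Of 3 further CENPI probe sets, the one above the filter level had a log2 difference of -0.74 and the other two, below it, the opposite sign. CENPM, another inner kinetochore subunit, read 199, 182 and 208 against 179, 166 and 127 (-0.32, SE 0.13, adjusted p = 0.0750), with the highest decoy array just under the lowest control array. Without decoy replicate 1, CENPM passed (-0.42, adjusted p = 0.0393), as it did on the deposited scale without normalization (-0.42, adjusted p = 0.0284).

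The NDC80 complex, the rod that grips the microtubule, has 4 subunits, and 3 of them fell. NDC80 itself went from 465, 457 and 392 to 250, 252 and 213, a log2 difference of -0.86 (SE 0.10, adjusted p = 6.13e-05). Its partner NUF2 went from 486, 492 and 396 to 232, 260 and 216 (-0.93, SE 0.11), and SPC25 from 324, 297 and 304 to 202, 173 and 160 (-0.77, SE 0.10). In all 3 subunits every decoy array lay below every control array. SPC24, the partner of SPC25, did not pass: it read 165, 158 and 111 against 114, 127 and 82.1 (-0.40, SE 0.18, adjusted p = 0.105). The SPC24 groups overlapped through control replicate 3, and without that array it passed (-0.58, adjusted p = 0.0278). SPC24 also passed with the replicate number as a block (-0.40, adjusted p = 0.0252) and on the deposited scale (-0.52, adjusted p = 0.0128). Whether SPC24 differs from its partners was not tested.

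Among the remaining kinetochore genes, CENPE, a kinesin that carries chromosomes to the spindle equator, went from 275, 270 and 234 to 148, 152 and 129 (-0.83, SE 0.11, adjusted p = 0.000137). The groups were well apart. CENPF, KNL1 and ZWINT, which bind the outer plate, differed by -0.65 (SE 0.09), -0.63 (SE 0.10) and -0.57 (SE 0.05). ZWINT went from 2963 ± 71.8 to 2001 ± 115 (SD, n = 3). The KNL1 call ended with the mean of its 4 probe sets (adjusted p = 0.169).

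Of 11 genes of the checkpoint, the mitotic kinases and the start of anaphase, 8 were lower, 1 higher and 2 did not pass, and the median was -0.45. MAD2L1, the checkpoint protein that captures CDC20, read 1622, 1654 and 1585 against 907, 796 and 806, 1.93-fold lower (log2 difference -0.95, SE 0.06, adjusted p = 1.42e-06). No other gene of the 57 had a smaller adjusted p. CDC20, the APC/C activator, fell from 641, 656 and 577 to 482, 443 and 438 (-0.45, SE 0.08, adjusted p = 0.000897). BUB1, a kinase that recruits the checkpoint to kinetochores, read 446, 460 and 452 against 302, 350 and 266 (-0.56, SE 0.10, adjusted p = 0.00100). Its decoy arrays were more spread than its control arrays, and 4 further BUB1 probe sets lay under the filter level, 1 of them with the opposite sign. With the mean of its probe sets the BUB1 call ended (-0.48, adjusted p = 0.131). BUB1B and TTK, also of the checkpoint, differed by -0.62 (SE 0.13) and -0.64 (SE 0.15).

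AURKA, the kinase of the spindle poles, went from 1104, 1253 and 1185 to 879, 861 and 884 (-0.43, SE 0.06, adjusted p = 0.000345). Its decoy arrays were tightly grouped and below all controls. UBE2C, the ubiquitin-conjugating enzyme of the APC/C, went from 2183 ± 29.2 to 1493 ± 212 (SD, n = 3) and PTTG1 (securin), the inhibitor of separase, from 4926 ± 252 to 3669 ± 54.1. PTTG1 differed by -0.42 (SE 0.05, adjusted p = 4.16e-05). The only PTTG1 probe set also carries the suffix of possible cross-hybridisation.

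ESPL1, which encodes separase, the protease that cuts cohesin at anaphase, was the 1 gene that rose. It read 751, 739 and 830 in controls and 1024, 975 and 971 with the decoy, 1.28-fold higher (log2 difference 0.36, SE 0.07, adjusted p = 0.00163), with all decoy arrays above all control arrays. The second ESPL1 probe set read 525, 510 and 541 against 761, 748 and 754, a log2 difference of 0.52. Both probe sets were bright and on the same side, opposite to that of PTTG1, the separase inhibitor. On the deposited scale without normalization the value was 0.27 and did not pass (adjusted p = 0.124), and the call held when any 1 array was left out.

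PLK1, a kinase active from mitotic entry to cytokinesis, showed no detectable difference on a dim probe set. It read 65.1, 29.8 and 55.7 against 46.1, 53.2 and 43.3 (log2 difference -0.02, SE 0.24, adjusted p = 0.969). The decoy arrays lay inside the control range, and the class median of -0.45 lies less than 2 SE away, so a fall of that size was not detectable here. BUB3, a checkpoint scaffold also used outside mitosis, read 1994, 2092 and 1972 against 1884, 1833 and 1774 (-0.14, SE 0.05, adjusted p = 0.0515). Its groups were narrowly apart, and of 5 further probe sets 4 had the same sign. BUB3 passed when the filter was raised to the 50th percentile (adjusted p = 0.0422).

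**Figure D3:**
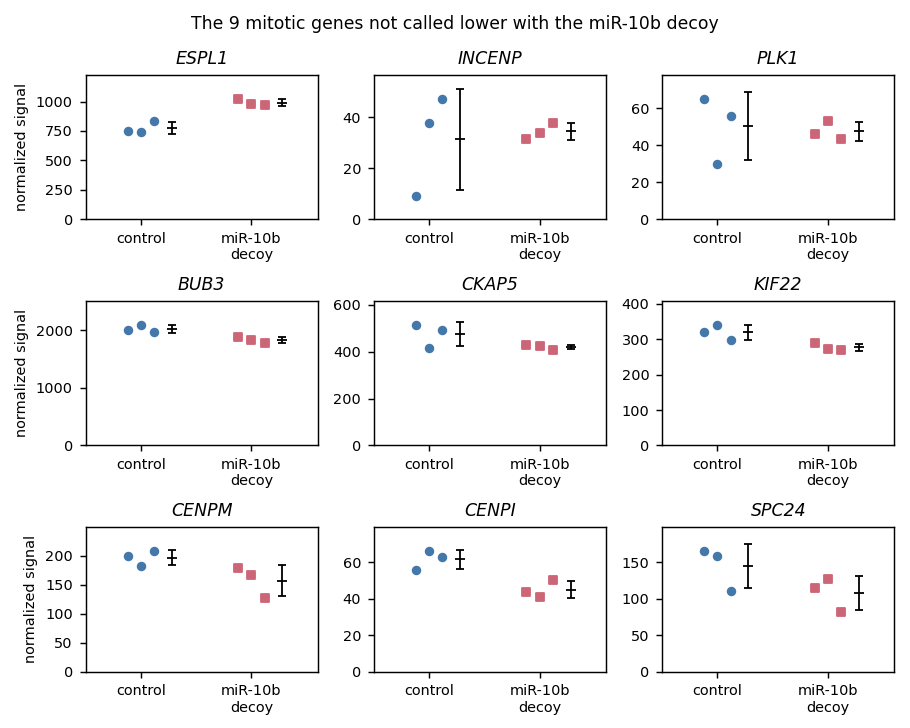
Normalized signal of the 9 mitotic genes that were not called lower, on each of 3 control (blue circles) and 3 miR-10b decoy arrays (red squares), with the mean and SD beside them in black and each axis starting at 0. ESPL1 is higher on all decoy arrays, at 971 to 1024 against 739 to 830, while INCENP and PLK1 are dim and spread among controls.

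The chromosomal passenger complex corrects attachments and then directs cytokinesis. Of its 4 genes, 3 were lower, 0 higher and 1 did not pass. CDCA8 (borealin) went from 336, 366 and 374 to 192, 206 and 176 (-0.88, SE 0.09, adjusted p = 3.18e-05). The kinase subunit AURKB went from 183, 223 and 209 to 141, 144 and 140 (-0.51, SE 0.10, adjusted p = 0.00288), with decoy arrays within a few units of each other. BIRC5 (survivin) differed by -0.67 (SE 0.11), and its 3 other probe sets had the same sign. The scaffold INCENP was not measured well: it read 8.97, 37.6 and 47.3 against 31.5, 33.9 and 37.9 (0.29, SE 0.39, adjusted p = 0.608), control replicate 1 being under the filter level. The AURKB call ended with the mean of its probe sets (adjusted p = 0.199).

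Spindle assembly factors and microtubule-binding proteins numbered 7, of which 6 were lower, 0 higher and 1 did not pass. DLGAP5, which stabilises spindle microtubules near chromosomes, went from 542, 556 and 540 to 254, 306 and 257, 1.98-fold lower (-0.99, SE 0.09, adjusted p = 9.07e-06). Its control arrays were close together and far above the decoy arrays. TPX2, the activator of AURKA, differed by -0.72 (SE 0.11), NUSAP1 by -0.70 (SE 0.10), ASPM, a spindle pole protein, by -0.69 (SE 0.10), HMMR by -0.59 (SE 0.08) and CKAP2 by -0.46 (SE 0.11). Averaging each gene's probe sets ended the calls of ASPM (adjusted p = 0.130) and CKAP2 (adjusted p = 0.0555). CKAP5, a microtubule polymerase, read 515, 417 and 494 against 427, 425 and 409 (-0.17, SE 0.09, adjusted p = 0.164). The CKAP5 groups overlapped through control replicate 2, and without that array it passed (-0.26, adjusted p = 0.0460).

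All 3 cytokinesis genes were lower. ANLN (anillin), which organises the contractile ring, went from 1266, 1265 and 1144 to 650, 722 and 657 (-0.85, SE 0.07, adjusted p = 5.15e-06). ECT2, which activates RHOA at the division plane, went from 1146, 1046 and 1034 to 594, 752 and 640 (-0.70, SE 0.09), and PRC1, which bundles the central spindle, from 1019, 1112 and 1128 to 712, 723 and 596 (-0.68, SE 0.08, adjusted p = 8.47e-05). In each of the 3, the groups were far apart. One further ECT2 probe set with a mean signal of 1.68 had the opposite sign, and the ECT2 call ended with the mean of its probe sets (adjusted p = 0.0866).

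All 6 genes of condensin and the mitotic chromosome were lower, with a median of -0.52. TOP2A, the topoisomerase that untangles chromatids, read 1231, 1123 and 890 against 730, 659 and 553 (-0.73, SE 0.12, adjusted p = 0.000700). MKI67, which coats mitotic chromosomes and is the antigen of the Ki-67 proliferation stain, read 252, 277 and 236 against 194, 190 and 160 (-0.48, SE 0.11, adjusted p = 0.00450). Both genes had non-overlapping groups, and all other probe sets of both had the same sign. The subunits particular to condensin I, NCAPG and NCAPH, differed by -0.57 (SE 0.09) and -0.63 (SE 0.12). The core ATPases SMC2 and SMC4, shared by both condensins, differed by -0.42 (SE 0.10) and -0.34 (SE 0.06). The SMC4 value was the smallest of the class on the probe set that stood for the gene. A second bright SMC4 probe set read 463, 462 and 440 against 252, 326 and 253, a log2 difference of -0.71. The third, with a mean signal of 79.1, had -0.36.

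Probe sets that did not stand for a gene gave a partial check. The 57 genes had 112 probe sets, 29 genes having more than 1, and of the 55 further probe sets 46 had the sign of the one that stood for the gene. Of the 40 further probe sets above the filter level 37 had that sign, the exceptions being dim ones of BUB3, KIF20B and KIF22.

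Other genes of the same machinery, in lists that do not share a gene with the 57, included falls and rises. The counts in all these lists are to be read beside the shares over all tested genes, 17.4% lower and 16.6% higher. Of 26 tested kinetochore genes outside the 57, 12 were lower and 1 higher, with a median log2 difference of -0.28. HJURP, the chaperone that loads CENPA, fell from 512 ± 47.1 to 257 ± 38.7 (SD, n = 3; -0.98, SE 0.11, adjusted p = 6.23e-05), and the checkpoint protein MAD1L1 rose (0.60, SE 0.17, adjusted p = 0.0170). The MAD1L1 call ended on the deposited scale (adjusted p = 0.0507), when low signals were kept (adjusted p = 0.0546), when variances were not moderated (adjusted p = 0.104) and when control replicate 1 (adjusted p = 0.0589), decoy replicate 2 (adjusted p = 0.0667) or decoy replicate 3 (adjusted p = 0.0617) was left out. Of 30 spindle genes 11 were lower and 4 higher, led by the kinases NEK2 (-0.84, SE 0.07) and NEK7 (0.44, SE 0.09). The NEK7 call ended without moderation (adjusted p = 0.0672). Of 10 cytokinesis genes 3 were lower and 2 higher. CEP55, which recruits the abscission machinery, differed by -0.62 (SE 0.07) and its client CHMP4B by 0.20 (SE 0.05, adjusted p = 0.0146), a call that ended on the deposited scale (adjusted p = 0.779), with the mean of its probe sets (adjusted p = 0.522), when the fit had no intensity trend (adjusted p = 0.0853) or no moderation (adjusted p = 0.0630), and when control replicate 1 (adjusted p = 0.0627) or decoy replicate 1 (adjusted p = 0.0505) was left out.

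Kinesins and light chains outside the mitotic list, most of them carriers of cargo in interphase, were measured as well. Of 23, 5 lay under the filter level, and of the 18 tested 6 were lower and 7 higher, with a median of 0.04, beside 11 lower and 0 higher of the 12 mitotic kinesins. KIF5B, the main conventional kinesin heavy chain, differed by 0.22 (SE 0.05, adjusted p = 0.00248), and its call ended without normalization (adjusted p = 0.8) and with the mean of its probe sets (adjusted p = 0.243). KIFAP3, the accessory subunit of kinesin-II, was the largest fall (-0.53, SE 0.12, adjusted p = 0.00407), a call that ended without moderation (adjusted p = 0.0694). The probe set that stood for KIF26B was at least 3.0-fold higher (adjusted p = 0.000320). A bound is given since all 3 control arrays lay under the filter level (5.41 ± 3.02 against 46.8 ± 7.70, SD, n = 3). Its mean signal, 26.1, was close to that of a second KIF26B probe set, 23.9, also above the filter level, whose log2 difference was -0.09. The third, with a mean signal of 4.40, had -0.32, so the rise holds for 1 probe set and not for the gene. The KIF26B call ended with the mean of its probe sets (adjusted p = 0.0708). Whether the motor classes differ was not tested as sets.

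Chromosome structure and APC/C genes included rises and falls. Of 15 cohesin and further condensin genes 7 were lower and 4 higher. The cohesin protector CDCA5 (sororin) fell from 354 ± 23.3 to 189 ± 34.3 (SD, n = 3; -0.89, SE 0.12) and the cohesin subunit STAG2 rose from 774 ± 14.5 to 1092 ± 83.9 (0.49, SE 0.07, adjusted p = 0.000223). Of 16 genes of the APC/C core and its regulators 3 were lower and 3 higher, with a median of -0.02. Both counts were near the shares over all tested genes (17.4% lower and 16.6% higher), and the median over all genes was also -0.02. FBXO5 (EMI1), an APC/C inhibitor, differed by -0.81 (SE 0.07, adjusted p = 6.19e-06), and the core subunit CDC26 by 0.38 (SE 0.07), a call that ended without normalization (adjusted p = 0.103).

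Genes that promote or restrain entry into mitosis were mostly lower too. Of 12, 10 were lower and 0 higher, with a median of -0.65. WEE1, a kinase that restrains entry, was lower (-0.77, SE 0.16, adjusted p = 0.00307). PKMYT1, another such kinase, did not pass (-0.18, SE 0.13, adjusted p = 0.342). CDK1, the kinase of mitotic entry, differed by -0.91 (SE 0.07, adjusted p = 3.52e-06) and MASTL, which restrains the opposing phosphatase, by -0.91 (SE 0.10). CDC25A had the value nearest 0, -0.02 (SE 0.14, adjusted p = 0.922). Of 16 genes of the DREAM and MuvB complexes and their partners, 7 were lower and 2 higher. MYBL2 (B-MYB) fell from 119 ± 9.98 to 73.6 ± 5.26 (SD, n = 3; -0.65, SE 0.13, adjusted p = 0.00234) and FOXM1, a transcription factor of late cell cycle genes, from 342 ± 17.4 to 233 ± 3.54 (-0.54, SE 0.08, adjusted p = 0.000423). The MuvB subunit LIN37 was higher (0.36, SE 0.07, adjusted p = 0.00280), a call that ended without normalization (adjusted p = 0.113) and with the mean of its probe sets (adjusted p = 0.322).

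**Figure D4:**
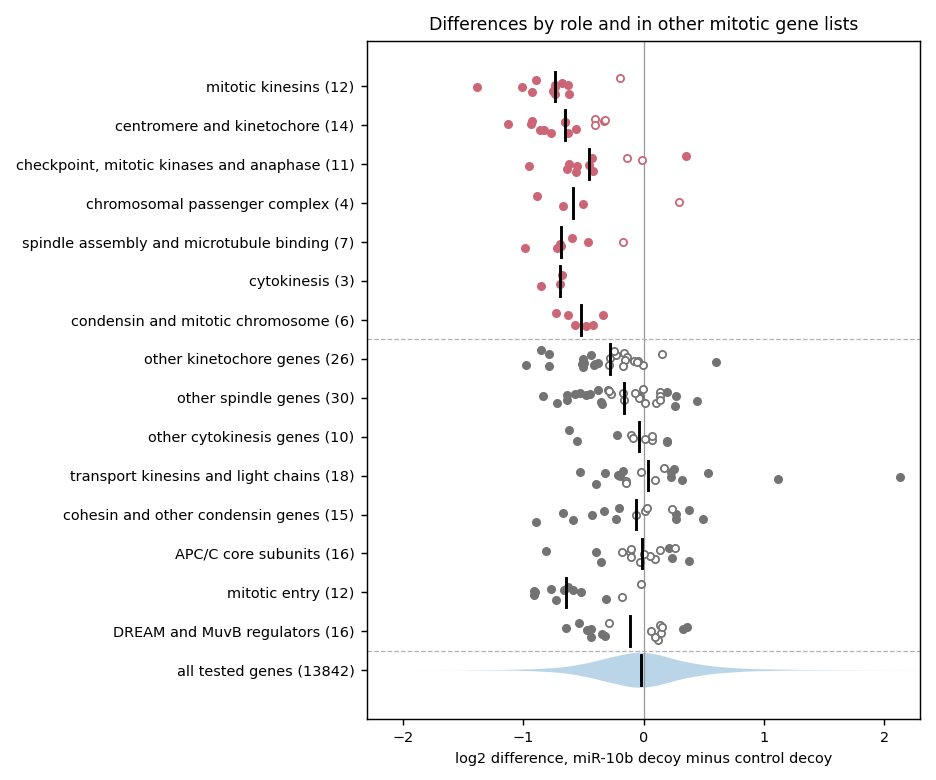
log2 difference, miR-10b decoy minus control decoy, of each tested gene by role among the 57 (red) and in the 8 other lists (grey), with all 13842 tested genes as a violin; filled points passed at an adjusted p under 0.05, open points did not, black bars are medians and the number of tested genes is in brackets. The medians of the 7 roles lie between -0.74 and -0.45, that of all genes at -0.02 and that of the transport kinesins at 0.04.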

How the data were processed

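RNA from 3 control decoy and 3 miR-10b decoy samples was measured on Affymetrix-type arrays from 0.25 µg total RNA labelled with biotin, per the labels' protocols. The deposited values are linear signal intensities for 54675 probe sets, and MAS5 is named in the submitters' processing notes, with no version or scaling target in the sources used here. Gene symbols came from the platform annotation: 41097 probe sets had 1 symbol, 1801 several and 11777 none, and only the first kind named a gene. Of 19775 genes, 19735 were matched by Entrez identifier to RefSeq (GRCh38.p14), all with the same symbol. Log2(signal + 7) was quantile normalized over all probe sets. Genes under the 30th percentile of mean deposited signal were left out. limma (version 3.58.1, R 4.3.3; lmFit, eBayes with an intensity trend, two-sided, Benjamini-Hochberg) compared the groups, with 7.68 prior and 4 residual degrees of freedom. The number of arrays limits the precision.

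The 57 genes, the other lists and the motifs were chosen with earlier results of these data known. A gene was described in full if it had the largest or smallest difference of its role, did not pass or rose, had a probe set of the opposite sign, or was among 11 fixed names; in the other lists the largest rise and fall were named, with CDK1, FOXM1 and KIF5B. Remaining genes of the 57 were named after their values were seen. A fold is a lower bound, the brighter mean over the filter level, where a group had every array below that level. The alternatives were 2 other scalings, 2 offsets (1 and 32), 2 filters, the mean of all probe sets, no trend, no moderation, the replicate number as a block and each array left out.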

Additional observations from a re-analysis of the deposited data

How the results depend on the processing

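Over 16 alternatives, the lower genes among the 57 numbered 47 to 50 except with the mean of all probe sets (40) and without moderation of the variances (37). The filter at the 50th percentile left 53 of the 57 for testing, and a gene left out there was not counted as a lost call. Of the 49 that passed, 30 did so under every alternative, 19 lost the call under at least 1, and 0 changed direction. With each array left out in turn, 48 or 49 were lower, and the median of the 57 ranged from -0.71 to -0.54. Without normalization, 1094 genes of the array were higher and 0 of the 57. With the mean of all probe sets 3036 genes passed, 1574 lower and 1462 higher, and with no moderation 2830, 1379 lower and 1451 higher. The same-numbered arrays of the groups did not deviate together (r = 0.03, -0.03 and -0.01), so the replicate number gave no pairing; with it as a block 4558 genes passed and 49 of the 57 were lower, and 2 of 6 arrays correlated best with their own number. Without moderation the calls of BUB1B, CENPA, CENPN, KIF15, KIF18A, KIFC1, MKI67, SMC2, TOP2A, TTK and UBE2C ended (adjusted p from 0.0512 to 0.142). Dim probe sets limit what can be said of KIFC1, INCENP and PLK1.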

Other observations

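Among genes outside the 57, the share lower was highest with both promoter motifs. Over all tested genes it was 17.4%, with 16.6% higher. Of 628 tested genes with both a CHR and a CCAAT match, 22.5% were lower and 15% higher with the miR-10b decoy. Of 5606 with neither, 16.2% were lower and 17.5% higher. With a CHR match alone 17.2% of 738 genes were lower and 17.8% higher. With a CCAAT match alone 18.7% of 3904 were lower and 15.7% higher. The median log2 differences were -0.07 with both, -0.02 with either alone and -0.01 with neither. These shares were computed after the values of the 57 genes were seen, and no test was run on them. Only the 57 genes were taken out, so genes of mitotic entry and of the other mitotic lists were not removed. Their part in these shares was not tested.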
